A study of Mus musculus with 15 samples.

Results

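CTCF peaks without Rad21 in active chromatin are the CTCF peaks of the deposited list, on chromosomes 1 to 19 and X, that overlap no Rad21 peak in either replicate list and overlap a shared H3K27ac region, which is a merged region holding a peak of both H3K27ac lists. There were 429 of them among 35345 CTCF peaks, or 1.21%. They made up 8.96% of the 4788 CTCF peaks in shared H3K27ac regions (95% Wilson interval 8.18 to 9.80, counting error only). Over all CTCF peaks, the share without Rad21 was 30.3%. The 429 peaks were 4.00% of the 10714 CTCF peaks without Rad21, while 13.5% of all CTCF peaks lay in shared H3K27ac. The peaks were selected on their overlap with Rad21 and H3K27ac peaks, so those overlaps are a description of how they were chosen and were not tested.

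The libraries were ChIP-seq of thymus from C57BL/6 mice of wild type genotype. All of them were made from CD4+CD8+ thymocytes lacking CD69 that had been fixed with formaldehyde, with antibodies to CTCF (1 library), Rad21 (2) or H3K27ac (2). No knockout or treatment enters these groups, the age of the mice is not given in the sources used here, and nothing in the labels ties a replicate to its own animal, so the spread between replicates may be technical. The 8 Hi-C and 2 input samples were not analysed here. The double-positive thymocyte markers Cd4, Cd8a, Cd8b1, Rag1, Rag2, Ptcra and Dntt each had a shared H3K27ac region at the promoter, as did 5 of 12 B cell, 1 of 12 myeloid, 3 of 10 erythroid and 3 of 12 thymic stroma markers. With 1 CTCF library, and with peaks that are not replicates of a condition, no test was run on any comparison below. The authors' fold enrichment, which is the CTCF signal over local background at a peak, was used only within the CTCF list.

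CTCF is a zinc finger protein that binds a long, conserved DNA motif and halts cohesin when cohesin extrudes a loop of chromatin. Rad21 is the kleisin subunit that closes the cohesin ring, and most strong CTCF sites are also cohesin sites. H3K27ac is the acetylation of a histone H3 lysine found at active promoters and enhancers.

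The DNA under the summits is shown for the members of highest fold because few CTCF peaks of such height in shared H3K27ac lacked Rad21. Each line gives 29 bases of mm9 (NCBIM37), read 5′ to 3′ on the strand of the core, with the 13 bases that best match the CTCF core consensus in capitals. The 8 members of highest fold with a core match (at most 2 mismatches, within 50 bp of the summit on either strand) come first. They lie at promoters, at chr3:88357512-88357540 (−) for Ubqln4, chr3:152426769-152426797 (+) for Pigk, chr13:51196481-51196509 (−) for Spin1, chr11:83993474-83993502 (+) for Acaca, chr7:152469974-152470002 (−) for Tpcn2, chr3:89074530-89074558 (−) for Slc50a1, chr4:118100849-118100877 (−) for Elovl1 and chr10:57960791-57960819 (−) for Ccdc138.
Ubqln4: cccaggccCGAGCAGGGTGCGcagctggc
Pigk: cagcctagCCAGCAGGGGGGAggttccag
Spin1: gagcccggCCGGCAGGGGGCGctgagggg
Acaca: aggggcagCCGGCAGGGGGCGgcctccca
Tpcn2: gccttctgCCACTAGGTGCTGcagagaag
Slc50a1: ccacccggCCAGCACGCGGCGctggtttg
Elovl1: tggccagcCAGGCAGGGGGCGctggcacg
Ccdc138: ccatctcaCCTCCACGGGGCAccttcccg

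None of these 8 matched the consensus exactly. Pigk, Spin1 and Acaca had 1 mismatch and the other five had 2. The next 4 lines are the members of highest fold without a core match, each with 3 mismatches at its best position. They lie at chr9:46090760-46090788 (−) for Bud13, chr19:55391044-55391072 (+) for Vti1a, chr9:120492651-120492679 (+) near 5830454E08Rik and chr6:17644683-17644711 (−) for St7.
Bud13: tagctgtaCCACTAGGGGCACattcttga
Vti1a: ctgcccggCCGGGCGGGGGCGgcctggag
5830454E08Rik: caccactgACTGTAGGGGGTGctactgct
St7: ctctctctCCACTCGCGCGCGccctcggc

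For comparison, the last 4 lines are CTCF peaks in shared H3K27ac that carry Rad21 in both lists and have a core match, taken as the nearest in fold to Ubqln4, Pigk, Spin1 and Acaca. They lie at chr6:34828161-34828189 (−) at the 3110062M04Rik promoter, chr1:130729349-130729377 (−) far upstream of Cxcr4, chr1:193399864-193399892 (−) at the Ints7 promoter and chr8:26728397-26728425 (−) in an intron of Whsc1l1. Their mismatches numbered 2, 1, 0 and 1 in that order.
3110062M04Rik: acccgcggTCTGCAGGGGGCAcccggggc
Cxcr4: ttgcctcgACACCAGAGGGCGccctgtgg
Ints7: agctgccgCCACTAGGTGGCGccactccc
Whsc1l1: ctttaatcCCAGCAGAGGGAGacagagac

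The wider sequence is shown for 3 members whose summits lie upstream of the TSS, in 101 bases centred on the summit: Ubqln4 at chr3:88357499-88357599 (−), Bud13 at chr9:46090745-46090845 (−) and Tpcn2 at chr7:152469929-152470029 (−). They show the base composition that ran through the members, from the GC-rich window at Ubqln4 to the AT-richer ones at Bud13 and Tpcn2.
Ubqln4: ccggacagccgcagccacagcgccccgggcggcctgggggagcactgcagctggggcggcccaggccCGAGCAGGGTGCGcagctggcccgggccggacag
Bud13: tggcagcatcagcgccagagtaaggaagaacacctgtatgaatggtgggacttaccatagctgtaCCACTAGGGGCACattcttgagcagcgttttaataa
Tpcn2: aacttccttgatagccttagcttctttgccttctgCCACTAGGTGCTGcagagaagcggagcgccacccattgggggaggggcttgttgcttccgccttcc

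The members were low CTCF peaks with a few high ones among them. Their median fold enrichment was 3.31 (95% interval of the median 3.16 to 3.42, from order statistics), with quartiles at 2.81 and 4.15 and a range of 2.08 to 14.5. CTCF peaks in shared H3K27ac with Rad21 in both lists had a median of 7.37 (n = 3740), those with Rad21 in 1 list only a median of 3.99 (n = 619), and CTCF peaks without Rad21 outside H3K27ac a median of 3.22 (n = 10285). The members thus lay at the level of the Rad21-free peaks elsewhere and below the Rad21-bound peaks of the same kind of chromatin. Only 135 members (31.5%) had q at or under 0.05, against 70.9% of all CTCF peaks and 80.7% of the peaks with Rad21 in both lists. The share was 54.4% with Rad21 in 1 list and 32.6% for Rad21-free peaks outside H3K27ac, which was near that of the members. The members had a median width of 163 bp, against 230 bp for peaks with Rad21 in both lists and 179 bp for those with Rad21 in 1 list. Rad21-free peaks outside H3K27ac were narrower still, at 152 bp.

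All CTCF peaks were divided by fold into 10 bins of equal size, of which bin 1 is the lowest. Of the members, 288 (67.1%) fell in bins 1 to 3, and 14 fell in bins 7 to 10, which together hold 14062 CTCF peaks. In shared H3K27ac, the share of CTCF peaks without Rad21 went from 26.4% in bin 1 (97 of 368) to 11.7% in bin 4 and 0.134% in bin 10 (1 of 745). Outside shared H3K27ac it went from 87.8% in bin 1 to 39.5% in bin 4 and 1.90% in bin 10. The share inside was the lower of the pair in each of the 10 bins. These overlaps are what the rule used, so the shares are given as a description only.

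**Figure D1:**
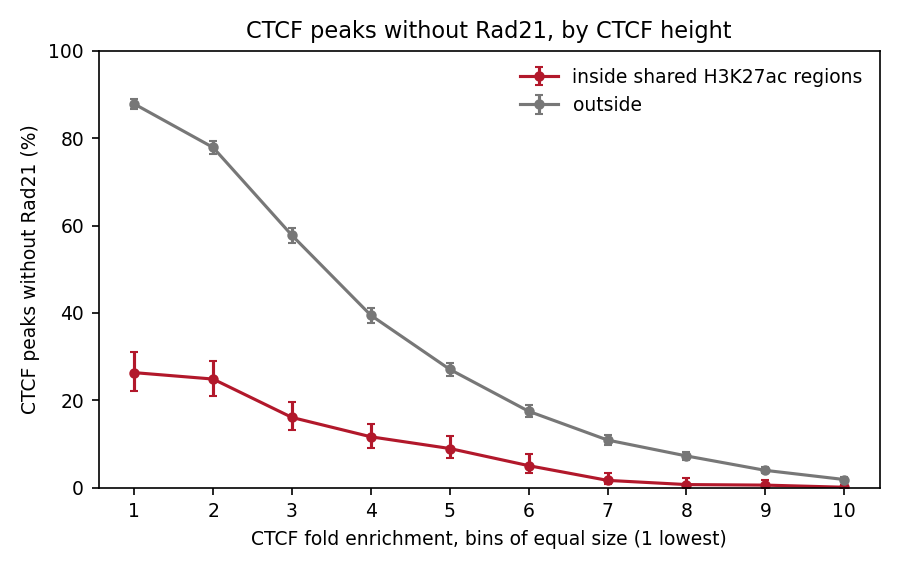
Percent of CTCF peaks that overlap no Rad21 peak in either list (y axis), by bin of CTCF fold enrichment (x axis, bin 1 lowest), inside (red) and outside (grey) shared H3K27ac regions. Points are shares and bars are 95% Wilson intervals, which cover counting error only. Inside H3K27ac the share goes from 26.4% to 0.134%, and outside from 87.8% to 1.90%.

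How many CTCF peaks counted as free of Rad21 depended on having 2 Rad21 lists. With Rad21 replicate 1 alone, 794 CTCF peaks in shared H3K27ac (16.6%) had no Rad21, and with replicate 2 alone 683 (14.3%). The mean of the single lists was 15.4% ± 1.64 (SD, n = 2), and the share with both was 8.96%. Peaks without Rad21 in both lists are among those without it in either list, so the rule fixes the direction of this difference. The CTCF list also sets the number: 135 members were left when only CTCF peaks with q at or under 0.05 were used, and 210 when H3K27ac peaks were held to that q before merging.

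At the boundary of the rule lay peaks that differ by a few base pairs. The 4 members nearest to Rad21 were at the promoters of Mcl1, a survival factor of the Bcl2 family (chr3:95463789-95463919), Pdlim5, a PDZ and LIM domain protein, Ssr4, a subunit of the translocon-associated complex, and Msto1, a mitochondrial protein. Their distances to the nearest Rad21 peak were 1, 3, 3 and 4 bp, where 1 means directly adjoining peaks, and their CTCF folds were 2.08, 3.93, 2.64 and 4.10. On the other side, the 4 CTCF peaks in shared H3K27ac with the least overlap were at Hectd2, upstream of Ankrd1, at Orai2, which encodes a calcium channel subunit, and at Ndufb3, a subunit of respiratory complex I. They overlapped a Rad21 peak by 1, 8, 9 and 11 bp, in replicate 2 only, and had folds of 5.94, 3.14, 3.14 and 2.35. The ranges of fold on the sides of this boundary overlapped.

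Many members had Rad21 close by although not on them. The median distance from a member to the nearest Rad21 peak of either list was 547 bp, whereas it was 23111 bp for CTCF peaks without Rad21 outside H3K27ac. A Rad21 peak lay within 500 bp of 204 members (47.6%), within 100 bp of 69 and within 2000 bp of 301, while 12 members were farther than 50000 bp from any. Over all CTCF peaks the share with a Rad21 peak on them or within 500 bp was 71.6%, most of it direct overlap that the rule removes from the members. For Rad21-free CTCF peaks outside H3K27ac that share was 4.47%. Rad21 was common in acetylated chromatin as such, with a peak in 74.2% of all shared H3K27ac regions. Taken by list, 134 members had a replicate 1 peak within 500 bp, 177 a replicate 2 peak and 107 a peak of both. Of the 204 nearest Rad21 peaks, 84 (41.2%) themselves lay on another CTCF peak. The same share over all Rad21 peaks is not given here, so this one cannot be called high or low. Without the members that have Rad21 within 500 bp, 225 remained.

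**Figure D2:**
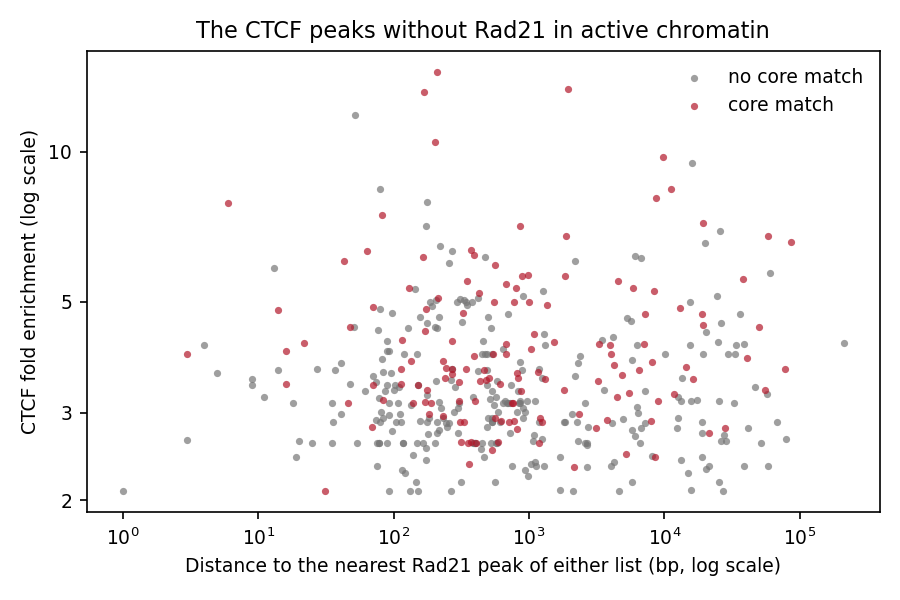
CTCF fold enrichment of each of the 429 members (y axis, log scale) against its distance in bp to the nearest Rad21 peak of either list (x axis, log scale). Red points have a CTCF core match and grey points have none. Members with and without a core match are spread over the whole range of distances, around a median of 547 bp.

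The CTCF core consensus was found at fewer members than at CTCF peaks with Rad21. A match within 50 bp of the summit was present at 142 members (33.1%, Wilson interval 28.8 to 37.7), against 72.4% of all CTCF peaks. The share was 62.0% for peaks in shared H3K27ac with Rad21 in both lists, 41.0% with Rad21 in 1 list and 45.1% for Rad21-free peaks outside H3K27ac. In windows centred 1000 bp from the summits, the members had a match in 4.90%, so the share at the summit was well above that of neighbouring DNA. Those windows were not matched to the summits for base composition. An exact match was present at 6 members (1.40%), compared with 1.94% of peaks in shared H3K27ac with Rad21 in 1 list and 9.36% with Rad21 in both. Outside H3K27ac it was present at 7.59% of Rad21-free peaks and 23.0% of those with Rad21 in both lists. Where a core was present, its centre lay a median of 15.5 bp from the summit in members and 8 bp in the peaks of H3K27ac with Rad21 in both lists, and within 20 bp in 62.7% and 86.0%. The median was 10 bp with Rad21 in 1 list and 11 bp in Rad21-free peaks outside H3K27ac, with 75.2% and 76.5% within 20 bp.

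Most of the gap in core share to the Rad21-bound peaks of active chromatin went with height. When the Rad21-bound peaks in shared H3K27ac were weighted to the height bins of the members, their core share was 38.1%. That is just above the upper end of the members' interval, 37.7%, but no interval was computed for the weighted share. With Rad21 in 1 list in shared H3K27ac, the weighted share was 34.8%. The same weighting gave 46.0% for Rad21-free peaks and 80.8% for Rad21-bound peaks outside H3K27ac. Members with q at or under 0.05 had a core in 63 of 135 cases (46.7%, 38.5 to 55.1), compared with 69.4% of Rad21-bound peaks of that q in H3K27ac and 83.6% of Rad21-free peaks of that q outside it. The heights were not matched in this comparison, with median folds of 4.91, 9.19 and 5.24 in that order. Above that q the shares were 26.9%, 30.9% and 26.4%. Rad21-bound peaks outside H3K27ac had a core in 92.1% at the better q and 77.0% above it, higher than the members in both cases.

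**Figure D3:**
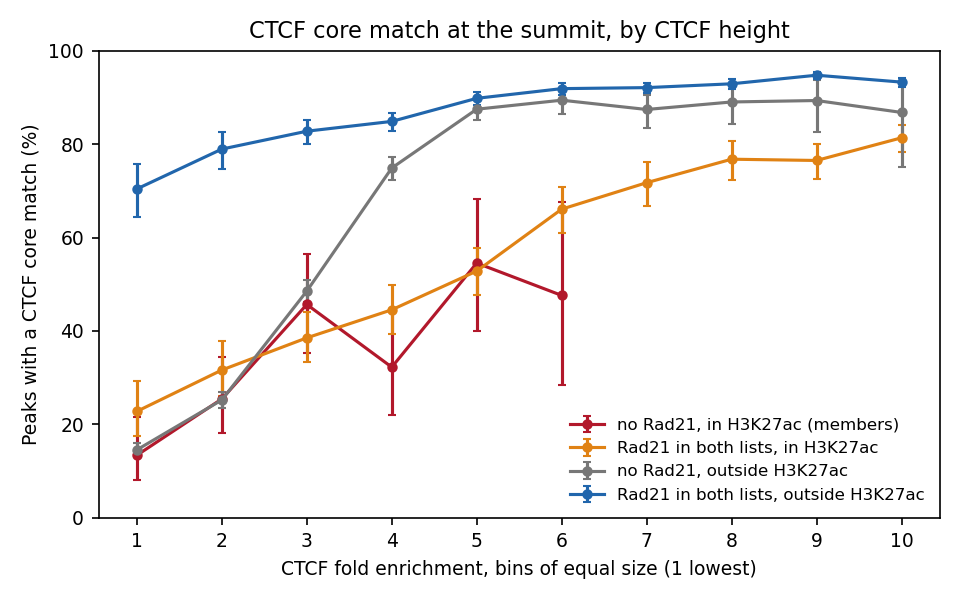
Percent of CTCF peaks with a CTCF core match within 50 bp of the summit (y axis), by bin of CTCF fold enrichment (x axis, bin 1 lowest), for the members (red) and 3 other classes of CTCF peak. Bars are 95% Wilson intervals, and bins with fewer than 20 peaks of a class are not drawn. The members lie at 13.4%, 25.5%, 45.7%, 32.3%, 54.5% and 47.6% in bins 1 to 6. The Rad21-bound peaks of H3K27ac chromatin (orange) lie at 22.8%, 31.6%, 38.5%, 44.5%, 52.8% and 66.1%, below the members in bins 3 and 5. Rad21-bound peaks outside H3K27ac (blue) are above both in each of these bins.

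Members were mostly promoter peaks. A promoter, taken as 2000 bp on either side of a protein-coding TSS, was overlapped by 300 members (69.9%), against 20% of all CTCF peaks. Of the rest, 69 were in introns, 48 were intergenic and 12 were in exons. The Rad21-bound peaks in shared H3K27ac had a promoter share of 61.9%, and Rad21-free peaks outside H3K27ac one of 9.94%, so the promoter share went with H3K27ac. Promoter members had a core match in 101 cases (33.7%) and the others in 41 (31.8%), whereas Rad21-bound peaks of H3K27ac had one in 55.6% at promoters and 72.3% elsewhere. The core lay on the strand of the nearest gene in 50 of the 101 promoter members with a match.

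Relative to the TSS, the promoter members lay downstream more often than upstream. Their summits were upstream in 121 of 300 cases (40.3%, Wilson interval 34.9 to 46.0), against 56.9% of all promoter CTCF peaks. For peaks with Rad21 in both lists in shared H3K27ac the share was 60.1% (58.1 to 62.1, n = 2314), and for those with Rad21 in 1 list it was 43.0%. The median offset was +97 bp in members and −41 bp in the Rad21-bound peaks, with median distances of 321 and 186 bp from the TSS. Among low peaks (bins 1 to 3) the shares came nearer to each other, with 41.7% upstream in members (34.9 to 48.9, n = 187) and 49.3% in Rad21-bound peaks (44.8 to 53.8, n = 469). The nearest Rad21 peak of the 161 promoter members with Rad21 within 500 bp had its summit a median of 212 bp from the TSS, against 305 bp for the CTCF summit. Its summit was nearer to the TSS than that of CTCF at 98 of the 161 (60.9%). The rule keeps members off Rad21 peaks, and 8113 of the 9231 acetylated promoters held one. The positions of CTCF and Rad21 at these promoters are therefore a description. Other classes were not compared for the 161, and the bearing of the rule was not tested.

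**Figure D4:**
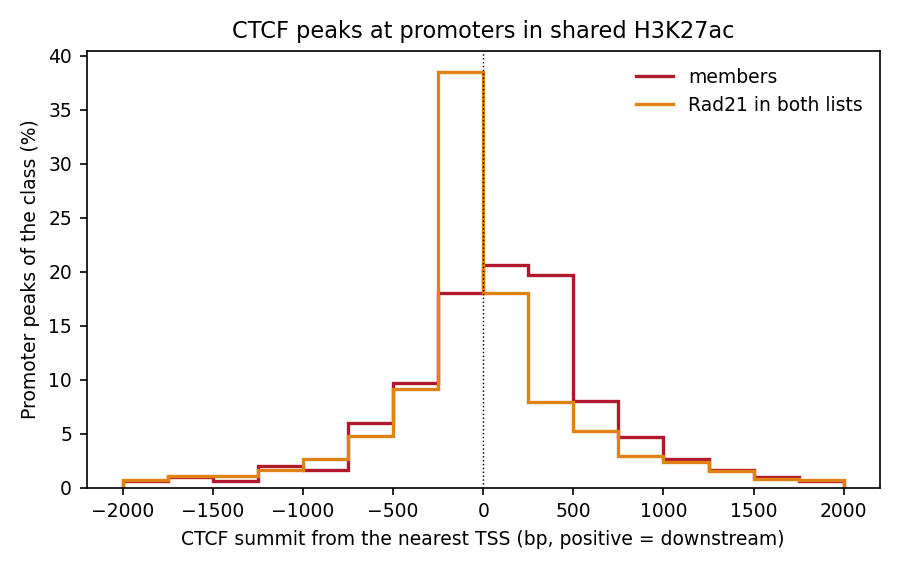
Percent of promoter CTCF peaks of a class (y axis) by the position of the summit relative to the nearest TSS, in steps of 250 bp (x axis, positive values downstream), for the members (red, n = 300) and for CTCF peaks with Rad21 in both lists in shared H3K27ac (orange, n = 2314). The step just upstream of the TSS holds 54 of the 300 members and 38.5% of the Rad21-bound peaks, and the step from 250 to 500 bp downstream 19.7% and 7.95%.

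The DNA of the members was GC-rich, as at other CTCF peaks in active chromatin. The median GC content in 201 bp around the summit was 55.2% in members, 56.7% in H3K27ac peaks with Rad21 in both lists, 59.7% in those with Rad21 in 1 list and 44.8% in Rad21-free peaks outside H3K27ac. The median numbers of CpG were 8, 8, 11 and 2. GC of at least 60% was found at 163 members (38.0%), against 10.4% of all CTCF peaks, 40.5% of the peaks with Rad21 in both lists and 49.1% of those with Rad21 in 1 list. The hexamer GGGCGG, which SP and KLF zinc finger proteins can bind, was present on either strand within 50 bp of the summit in 83 members (19.3%), against 5.68% of all CTCF peaks and 18.5% of Rad21-bound peaks in H3K27ac. In 8 of the 83 it lay only within the core match itself. The other motifs were rare: CAGCTG (an E-box) in 3.96% of members and 5.81% of all CTCF peaks, TATAAA in 3.26% and 3.66%, and TGTGGTT (RUNX) in 2.56% and 3.61%. CCGGAAGT (ETS) was in 5 members (1.17%) and 0.243% of all CTCF peaks, and AAGATGGCG (YY1) in 4 (0.932%) and 0.416%. TGACGTCA (CRE) was in 2 members (0.466%) and 0.105% of all CTCF peaks, and GCGCATGCG (NRF1) in 1 (0.233%) and 0.0792%. In peaks of shared H3K27ac with Rad21 in both lists, the shares were 1.04% (ETS), 0.401% (YY1), 0.214% (CRE) and 0.455% (NRF1). A match to such letters is a description and not a binding site.

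The 429 members lay in 417 shared H3K27ac regions, or 2.57% of the 16230 such regions. A region held 1 member in 408 cases, 2 in 7 and more in 2. Rad21 was present elsewhere in 292 of the 417 regions (70.0%), compared with 74.2% of all shared regions, and 125 regions with 127 members held no Rad21 peak at all. The regions with members had a median width of 1944 bp, against 1810 bp for all shared regions. Both H3K27ac lists had a peak directly on 272 members (63.4%), against 74.9% of all CTCF peaks in shared H3K27ac. The share was 75.6% with Rad21 in both lists and 78.2% with Rad21 in 1 list. Replicate 1 alone had a peak on 145 members and replicate 2 alone on 12. For 52 members the summit lay outside the acetylated region they touched, a count not given for the other classes. The region with most members, 4 of its 7 CTCF peaks, was at Mid1 (chrX:166408684-166431947), and the next, with 3 of 5, at 3110070M22Rik and Gm7120 (chr13:120276721-120280190). The latter ends 4122 bp from the end of the chromosome sequence. The narrowest regions with 2 members were near Gse1 (chr8:122940283-122941452, folds 3.33 and 4.10) and at 1110004F10Rik (chr7:123236358-123237966, folds 4.36 and 6.58), and neither held Rad21 in either list. By chromosome, members made up 6.90% to 15.3% of the CTCF peaks in shared H3K27ac, with the highest share on X (13 of 85, or 9 of 78 without the Mid1 region).

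The 24 members of highest fold reached from 6.31 to 14.5, and 23 of them were at promoters. A core match was present in 15, GC of at least 60% in 15, a Rad21 peak within 500 bp in 12 and none within 5000 bp in 9. The highest was at Ubqln4, which encodes a ubiquilin that shuttles proteins to the proteasome (chr3:88357446-88357659). It had a CTCF fold of 14.5 and a −log10 q of 24.2, and Rad21 peaks lay 233 bp away in replicate 1 and 209 bp away in replicate 2. Pigk, the catalytic subunit of the GPI transamidase (chr3:152426378-152426881), had a fold of 13.4, with Rad21 at 1999 and 1957 bp in the 2 lists. Both lists thus placed Rad21 at nearly the same distance from these 2 peaks.

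At several of these promoters the Rad21 lists differed. Spin1, a reader of histone methylation (chr13:51196374-51196614), had a CTCF fold of 13.2, with the nearest Rad21 peak at 5092 bp in replicate 1 and 167 bp in replicate 2. Bud13, a factor of pre-mRNA splicing and retention (chr9:46090669-46090914), had a fold of 11.8 and Rad21 at 19404 and 52 bp. Ccdc138, a coiled-coil protein gene, had a fold of 7.90 and Rad21 at 44936 and 6 bp. Faf1, an adaptor of ubiquitin-dependent degradation, had a fold of 7.45 and Rad21 at 26554 and 82 bp. Ppp2r2a, a regulatory subunit of protein phosphatase 2A, had a fold of 7.10 and Rad21 at 116353 and 174 bp. In all 5 the nearer Rad21 peak was that of replicate 2, the longer of the lists.

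Others were far from Rad21 in both lists. Tpcn2, an endolysosomal cation channel (chr7:152469856-152470100), had a fold of 9.75 with Rad21 at 30580 and 9754 bp. Vti1a, a SNARE of the trans-Golgi network (chr19:55390716-55391213), had a fold of 9.49, no core match and Rad21 at 15942 and 15959 bp. Slc50a1, a sugar transporter, had a fold of 8.43 with Rad21 at 11252 and 11210 bp, and Elovl1, an elongase of very long fatty acids, had 8.07 with Rad21 at 8741 and 8788 bp. Samm50, of the mitochondrial outer membrane assembly machinery, had 7.19 with Rad21 at 19461 and 19455 bp. March5, a mitochondrial ubiquitin ligase, had 6.78 with Rad21 at 58018 and 58000 bp. Ythdc2, an RNA helicase that binds methylated adenosine, had 6.58 with Rad21 at 86363 and 102113 bp. The H3K27ac peaks at these promoters had folds, in replicates 1 and 2, of 1.96 and 6.23 at Tpcn2, 7.37 and 2.48 at Elovl1, and 3.42 and 2.59 at March5, so acetylation was called in both lists there.

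**Figure D5:**
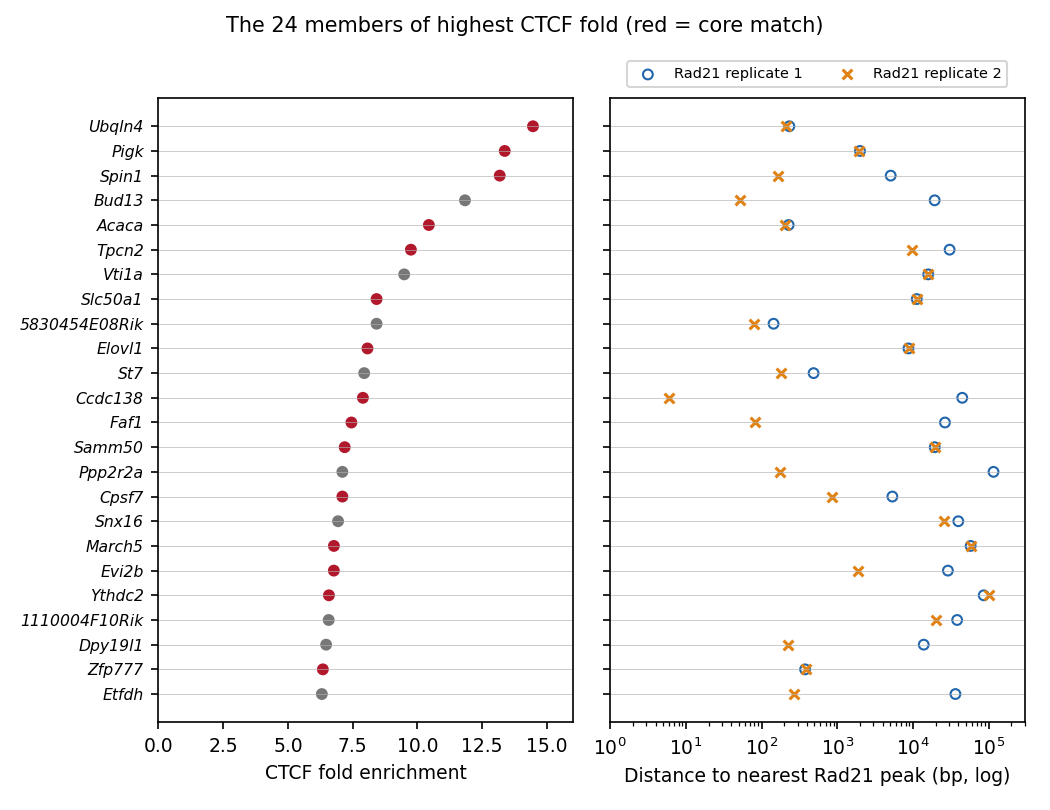
The 24 members of highest CTCF fold, named by the promoter or nearest gene, with CTCF fold enrichment on the left (red with a core match, grey without) and the distance in bp to the nearest Rad21 peak of replicate 1 (circles) and replicate 2 (crosses) on the right, on a log scale. Ubqln4 is highest at 14.5, and the distances in the lists differ most, on this scale, at Ccdc138, Ppp2r2a and Bud13.

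The remaining genes of the 24 were Acaca (10.4), acetyl-CoA carboxylase of fatty acid synthesis, St7 (7.95), Cpsf7 (7.10), of the cleavage factor in mRNA 3′ end formation, Snx16 (6.94), a sorting nexin, Evi2b (6.77), a membrane glycoprotein of blood cells, 1110004F10Rik (6.58), Dpy19l1 (6.48), Zfp777 (6.35) and Etfdh (6.31), of electron transfer from fatty acid oxidation, each with its CTCF fold. The only one outside promoters was an intergenic peak near 5830454E08Rik (chr9:120492524-120492837), with a fold of 8.43, no core match and Rad21 at 144 and 79 bp. Among promoters without a core match, Snx16 had 4 mismatches at its best position and Rad21 at 39842 and 25653 bp. A high CTCF fold, a core match and distance from Rad21 therefore did not go together in every member.

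The converse case was a perfect core under a low peak. The 6 members with an exact core match had folds of 2.45 at Msh5, a meiotic mismatch repair gene (chr17:35167136-35167285), 2.61 in an intron of C80913, 2.62 at Dysf, which encodes the membrane repair protein dysferlin, 3.48 at 1700054N08Rik, 4.83 at Cdyl, a chromodomain protein (chr13:35832810-35833051), and 5.52 at Ap1g2, an adaptor subunit of vesicle coats (chr14:55725362-55725685). All 6 lay below the 24 highest members. Cdyl and Ap1g2 had −log10 q values of 2.44 and 4.95, and the other four were under 0.5. The nearest Rad21 peak of either list was 173 bp away at Cdyl, 432 bp at 1700054N08Rik, 588 bp at Dysf, 1188 bp at C80913, 4538 bp at Ap1g2 and 8507 bp at Msh5.

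Members overlapped the promoters of 333 of 22209 protein-coding genes (1.5%), all of which have H3K27ac at the promoter, where the share was 3.61% of 9231. A Rad21-bound CTCF peak was also present at 105 of the 333 promoters, a share near that of all acetylated promoters (3068 of 9231). The lists of genes that mark this cell type had counts near that share. None of 18 genes for the T cell receptor, its coreceptors and their signalling had one. All 18 had H3K27ac and Rad21 at the promoter, 8 had a CTCF peak there, and 7 had one with Rad21. A CTCF peak lay at 3998 of the 9231 acetylated promoters. Of 22 regulators of the double-positive stage, 1 did: Bcl11b, a zinc finger factor of T cell commitment, had a member of fold 2.88 and a −log10 q of 0 (chr12:109243278-109243408), at −1529 bp from its TSS in an H3K27ac region of 20144 bp. None of 31 genes of CTCF, cohesin and chromosome structure had a member, and none of 67 replication-dependent histone genes. Of these promoters, 12 of the 31 and 10 of the 67 had any CTCF peak, and 11 and 10 had one with Rad21. Whether that bears on the absence of members was not tested.

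Housekeeping lists had a few members each. Cytosolic ribosomal protein genes had 6 of 82: Rps15 (fold 6.05, Rad21 at 43 bp), Rpl38 (5.09, 423 bp), Rpl35 (3.67, 340 bp), Rps7 (3.52, 13457 bp), Rpl7 (3.22, 384 bp) and Rpl36a (2.61, 25 bp). Of these, Rps15 and Rpl35 had a core match. General factors and Mediator of RNA polymerase II had 4 of 80, with the highest fold at Med19, a Mediator subunit that shares the promoter with Tmx2 (6.13, no core match, Rad21 at 6736 bp), followed by Taf2 (4.15), Med20 (3.79) and Gtf2h1 (3.14). Splicing genes had 3 of 44, namely Prpf4b (3.41), Prpf6 (3.13) and Srsf11 (2.72). The proteasome had 1 of 39, Psmd7 (2.93), and nuclear oxidative phosphorylation genes 1 of 90, the assembly factor Sdhaf2, whose peak is that of Cpsf7. Markers of B cells, myeloid cells, erythroid cells and thymic stroma had none (0 of 12, 12, 10 and 12), as had neuronal and liver genes (0 of 12 and 10), of which none had H3K27ac at the promoter. With so few members per list, these counts are descriptions beside the 3.61% of all acetylated promoters.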

How the data were processed

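ChIP-seq peak lists of CTCF (1 library), Rad21 (2) and H3K27ac (2) from wild type thymocytes were used as deposited, on build mm9 per the submitters' processing notes. Those notes name CASAVA 1.82 and 1.84, Bowtie 1.0.0, Bowtie2 2.3.2, HiC-Pro 2.7.8, Juicer 0.7.5 and MACS2 2.1.0, without roles. Neither the thresholds nor the control of the peak calling is given in the sources used here. The deposited fold enrichment is the authors' ratio of signal to local background. The deposited −log10 p and −log10 q values were used as the authors' files give them, and the deposited score was not used. The summit was deposited as a distance from the peak start in bp. Peak lists hold no read counts, so each library's depth, and with it the precision of a peak's values, is unknown, and Wilson intervals cover counting error only.

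Entries with the same coordinates were counted once, at the highest fold, which left 35345 CTCF, 38430 and 48462 Rad21 and 38700 and 24765 H3K27ac peaks. An overlap needed 1 bp. Sequence and gene models were NCBIM37, the assembly that mm9 displays, and GENCODE vM1 (22209 protein-coding genes with a TSS on the chromosomes used), read with pysam 0.24.0. The core consensus of 13 bp was searched on both strands. Groups were taken from the labels. No test was run, since peaks are not replicates. The alternatives were stricter q in each list, other overlap rules, each replicate left out, lists of 1 replicate number, autosomes, and other settings of core and promoter.

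The members, lists and alternatives were chosen with earlier results of these data known. Named were the 24 members of highest fold, the 6 highest without a core match, the 6 of best core match and lowest fold, the 4 nearest to Rad21 and the 4 CTCF peaks overlapping it least, the 4 H3K27ac regions with most members, and up to 8 genes with a member per list. The lists were the 15 given with their counts in the text and the double-positive thymocyte markers, of which 1 is not reported here. Overlap, distance and motif functions were tested on simulated data.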

Additional observations from a re-analysis of the deposited data

How the results depend on the processing

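A share or median is called moved here when it left the 95% interval of the reported value, and a number when it changed by over 1.5 times. Of 108 values recomputed under 16 alternatives, 55 stayed within those bounds and 53 moved. The core difference, the only signed value, was negative under all 15 of its alternatives.

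With CTCF peaks of q at or under 0.05 only, there were 135 members (3.87% of CTCF peaks in H3K27ac), with a median fold of 4.91, a core match in 46.7% (a difference of −22.7 points from Rad21-bound peaks), a promoter share of 83.0% and a median GC of 61.2%. With Rad21 peaks of −log10 q of at least 5 only, there were 785 (16.4%), with a fold of 3.52, q at or under 0.05 in 39.9%, promoters in 74.3% and GC of 58.2%. H3K27ac peaks of q at or under 0.05 gave 210 (7.95%), and requiring that 50% of the shorter peak or region overlap gave 10.8%. Without Rad21 within 500 bp there were 225 (4.70%), promoters in 61.8%, a core difference of −23.6 points and GC of 52.2%.

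Lists numbered 1 only gave 963 members (17.2%), q at or under 0.05 in 38.0% and promoters in 62.6%. Lists numbered 2 only gave 13.5%, a fold of 3.65, 43.7% of that q, 77.6% at promoters, a core difference of −23.7 points and GC of 61.7%. At most 1 mismatch gave a core in 10.3% and a difference of −23.5 points, a core search within 100 bp gave 38.9%, and promoters of 500 bp gave 52.9%.

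With each Rad21 or H3K27ac replicate left out in turn, the number ran from 307 to 794, the share from 8.01% to 16.6%, the median fold from 3.18 to 3.55, q at or under 0.05 from 27.6% to 41.1%, promoters from 56.5% to 77.2%, the core difference from −33.4 to −23.4 points and GC from 52.2% to 60.7%. The core share itself ran from 31.8% to 37.2%. The cause of these shifts was not tested. No paired analysis was possible because the results come from no test. Peaks called at q up to 1 in the CTCF list, its single library and the unknown depth limit every count.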

Other observations

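Chosen after the values were seen, 18 members had a core match, a CTCF q at or under 0.05 and no Rad21 peak of either list within 5000 bp, and 15 of them were at promoters. Beyond the promoters named above, they included Ube2q2, a ubiquitin-conjugating enzyme (fold 5.57, nearest Rad21 at 38380 bp), Ifih1, the cytosolic sensor of double-stranded RNA (5.26, 8457 bp), Scamp2, a secretory carrier membrane protein (4.73, 19108 bp), Fancl, the ubiquitin ligase of the Fanconi anaemia pathway (4.46, 50370 bp), and Bbs2, a subunit of the ciliary BBSome (3.86, 40508 bp). The 3 outside promoters were in introns of Tasp1, a protease (5.32, 5885 bp), Fbxo34, an F-box protein gene (4.87, 13159 bp), and Vps13a, a lipid transfer protein gene (4.73, 7162 bp).

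The 6 members of highest fold outside promoters were likewise chosen after their values were seen. After the intergenic peak near 5830454E08Rik they were in an intron of Scube3 (6.18), in an exon of Foxk1 (6.03), 13 bp from a Rad21 peak near Scaper (5.84), and in introns of Tasp1 and Gnai2 (5.32 each). Gnai2 encodes an inhibitory G protein alpha subunit, and its peak had 1 mismatch to the core, Rad21 at 802 and 813 bp in the lists, and H3K27ac folds of 11.3 and 3.07 in replicates 1 and 2.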
